A study of Mus musculus with 6 samples.

Results

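The genes described here encode ATG7 and the conjugation machinery around it. Of the 10 genes listed by name, Atg7, Atg3, Atg10, Atg5, Atg12, Map1lc3a, Map1lc3b, Gabarapl1 and Gabarapl2 were read as 9 of the 19700 genes that could be tested, each from 1 transcript cluster, which is a group of array probes for 1 transcribed region. The tenth gene, Atg16l1, has no cluster that the array annotation gives to it alone. Its shared cluster is reported as a check only. The study compared the brains of mice that lack Atg7 in neural cells with those of Cre-carrying controls. The control arrays (n = 3) came from Nestin-Cre;Atg7+/+ mice and the cKO arrays (n = 3) from Nestin-Cre;Atg7f/f mice, all at postnatal day 16 and on C57BL/6, so both groups carried the Cre transgene. The sample labels name the driver NexCre, whereas the methods of the study name Nestin-Cre. Nestin-Cre acts in neural precursors, while NexCre acts in excitatory neurons of the forebrain. In either case most microglia and vessel cells are expected to keep an intact gene, but recombination was not measured. The labels give the tissue as brain, the methods as cerebral cortex. No source says whether the arrays come from separate animals, so the p-values measure only the spread between these arrays, part of which may be technical.

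Autophagy encloses cytoplasm in a double membrane and delivers it to the lysosome. The membrane grows with the help of 2 systems that resemble ubiquitin conjugation. ATG7 is the E1-like enzyme that activates both of the modifiers, ATG12 and LC3. ATG10 is the E2-like enzyme that passes ATG12 on to ATG5, and ATG3 is the one that passes LC3 on to the lipid phosphatidylethanolamine. The ATG12-ATG5 conjugate binds ATG16L1 and directs this lipidation to the growing membrane. In mice, loss of Atg7 from the nervous system is known to cause accumulation of ubiquitin-positive inclusions and loss of neurons.

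Many autophagy genes are known targets of the TFEB family of transcription factors, which bind DNA sequences with a CACGTG core. For this reason their promoters were searched for CACGTG, which is its own reverse complement, so both strands were covered by 1 search. RefSeq promoters (GRCm38.p6, 250 bases before to 50 after a gene's start) were searched for 7 of the 10 genes. Those of Atg12, Atg16l1 and Map1lc3a were not searched, so whether they hold the core was not tested. Of the 7 genes searched, 3 (Atg7, Atg5 and Atg3) had the core in their promoter, compared with 7.15% of all 32851 promoters listed. The matches are shown with 20 bases on each side, the core in capitals.
Atg7, chr6:114670944-114670989, plus strand: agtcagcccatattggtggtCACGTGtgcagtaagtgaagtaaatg
Atg5, chr10:44268305-44268350, plus strand: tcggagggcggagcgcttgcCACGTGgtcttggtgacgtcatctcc
Atg3, first match, chr16:45158715-45158760, plus strand: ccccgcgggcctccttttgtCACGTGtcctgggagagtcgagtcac
Atg3, second match, chr16:45158738-45158783, plus strand: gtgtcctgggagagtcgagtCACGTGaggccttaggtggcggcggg
The core began 132 bases before the listed start in Atg7 and 14 bases before it in Atg5. Whether a listed start is the first one of its gene was not checked. In Atg3 the cores began 94 and 71 bases before the start, so that their windows overlap. These matches describe sequence only, since binding was not measured. Of the factors themselves, Tfeb differed by -0.07 on the log2 scale and Tfe3 by -0.03, neither with an unadjusted p under 0.05 from limma.

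Some facts of the 6 arrays touch all results. The correlation between any pair of arrays lay between 0.980 and 0.990 over the tested genes. In cKO replicate 1, the female-specific transcript Xist had a log2 signal of 9.51 against 3.48 to 4.15 in the other 5 arrays, and 3 Y-linked genes (Eif2s3y, Kdm5d, Uty) were at 2.90 to 3.96 there, against 5.26 to 6.74 in the others. Sex is not given in the labels. The levels differ between this array and the others as they do between females and males, so the 6 arrays do not all come from 1 animal. The conjugation genes and most of the other genes named with a difference were therefore also compared without this array. Ttr, a marker of choroid plexus, was at 5.38, 9.62 and 7.35 in the controls and at 9.88, 7.03 and 5.58 in the cKO arrays, so this marker varied widely within both groups. The neuronal markers were bright in every array, with mean signals from 7.41 to 10.87 over 6 of 6 genes. Their summed signal was 12.2 to 12.3 in the controls and 12.1 to 12.3 in the cKO arrays.

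First, the targeted gene was examined. Atg7 was measured by a cluster that carries 362 probes according to the deposited annotation. That annotation places it on the plus strand of chromosome 6 (chr6:114433544-114810947), a span of 377 kb. No source used here names the build of these coordinates. RefSeq gives Atg7 a length of 217 kb. The cluster thus spans more than the RefSeq gene, and the platform annotation also lists it under Camsap1, a microtubule-binding protein gene that RefSeq places on chromosome 2. The annotation in the deposited comparison table pairs Atg7 with an unnamed locus instead. In control replicates 1, 2 and 3, Atg7 had log2 signals of 6.58, 6.54 and 6.39. In the cKO arrays these were 6.12, 6.03 and 5.90. Every cKO array was below every control array, with a gap that was wider than the spread within either group. The control mean was 6.50 ± 0.10 (SD, n = 3), against a cKO mean of 6.02 ± 0.11 (SD, n = 3). They differed by -0.48 (SE 0.092, 95% interval -0.70 to -0.27), which leaves 71.5% of the control signal (interval 61.4% to 83.2%). By limma the unadjusted p was 0.00125, the 19th lowest of all genes tested, and the adjusted p was 0.9995, a value shared by the other 8 genes. The two-sided exact permutation test gave p = 0.1, the smallest that 3 arrays against 3 allow.

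The signal that was left in the cKO arrays cannot be read as the share of cells or transcripts that kept Atg7. The flox allele of this mouse line is known to remove the exon that encodes the catalytic cysteine, and probes for other exons do not read that exon. Whether the deletion changes the level of the rest of the transcript was not tested. Values of single probes were not analysed here. In a bulk sample, fewer cells of a type and less RNA per cell cannot be told apart either. Markers of microglia and of vessel cells, which are expected to lie mostly outside the lineage of either driver, overlapped between the groups when all 6 arrays were used. Of 6 microglial markers, 3 had a higher mean and 3 a lower mean in the cKO arrays, with a median difference of -0.0036. Their summed log2 signal was 9.19 to 9.42 in the controls and 9.24 to 9.48 in the cKO arrays. Once cKO replicate 1 was left out, 2 of the 6 microglial markers had a higher mean and 4 a lower one. Tmem119 then differed by -0.29 (unadjusted p = 0.0283, limma) and C1qa by -0.24 (unadjusted p = 0.0679). In these arrays 1510 of all 19700 genes had an unadjusted p under 0.05. Of 6 endothelial and pericyte markers, 3 had a higher mean and 3 a lower mean, with a median difference of 0.015. Their summed signal was 9.02 to 9.22 in the controls and 8.99 to 9.17 in the cKO arrays.

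Among neural cell types, the 5 measured of 6 oligodendrocyte markers all had lower means in the cKO arrays, with summed log2 signals of 10.8 to 11.1 in the controls and 10.5 to 11.0 in the cKO arrays, so the groups overlapped. Without cKO replicate 1, 3 of these 5 (Mog, Mag and Cnp) had an unadjusted p under 0.05 by limma, with a median difference of -0.45 over the 5, and 1510 of all 19700 genes then had such a p. Without cKO replicate 2, Mog, Mag and Cnp differed by -0.22, -0.19 and -0.18, none with an unadjusted p under 0.05. Of 6 cortical excitatory neuron markers, 5 were measured and 4 had a lower mean, with summed signals of 11.1 to 11.3 against 10.9 to 11.2. One of them, Neurod6, a transcription factor gene of excitatory neurons also known as Nex, was at 7.99, 7.80 and 7.97 in the controls and at 7.18, 7.78 and 7.47 in the cKO arrays. All its cKO arrays were below all controls, as for Atg7, though cKO replicate 2 only just. It differed by -0.44 (SE 0.15, unadjusted p = 0.0243, limma), and by -0.29 (unadjusted p = 0.0512) without cKO replicate 1. NexCre, the driver named in the labels, bears the name of this gene, and whether the driver affects its signal was not tested. The other 4 overlapped between the groups, with Slc17a7, a vesicular glutamate transporter gene, at -0.21. The 6 astrocyte markers summed to 10.2 to 10.3 in the controls and to 10.3 in all cKO arrays, which lay just above the controls. Of these 6 genes, 5 had a higher and 1 a lower mean. None separated the groups by itself or had an unadjusted p under 0.05 by limma. The 4 measured of 6 striatal markers all had lower means, with sums of 9.09 to 10.2 against 8.24 to 9.12. Their median difference, -0.72, was larger in size than that of Atg7, with a range of -0.86 to -0.54, and the groups did not overlap for Rgs9, a regulator of G-protein signalling (-0.85, SE 0.38, unadjusted p = 0.0589, limma). Leaving out cKO replicate 1, the median was -0.88, and Drd1, a dopamine receptor gene, differed by -0.78 (unadjusted p = 0.0395, limma). Without control replicate 1, Drd1 differed by -0.33 (unadjusted p = 0.216) and Rgs9 by -0.47 (unadjusted p = 0.156). Of 6 blood markers 4 were measured, with sums of 6.64 to 6.92 against 6.80 to 7.19, and Alas2, a heme synthesis gene of red cell precursors, differed by 0.45 (SE 0.17, unadjusted p = 0.0359, limma) with overlap. It differed by 0.33 (unadjusted p = 0.111) without cKO replicate 1. The part of cell composition in the difference of Atg7 was not tested.

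**Figure D1:**
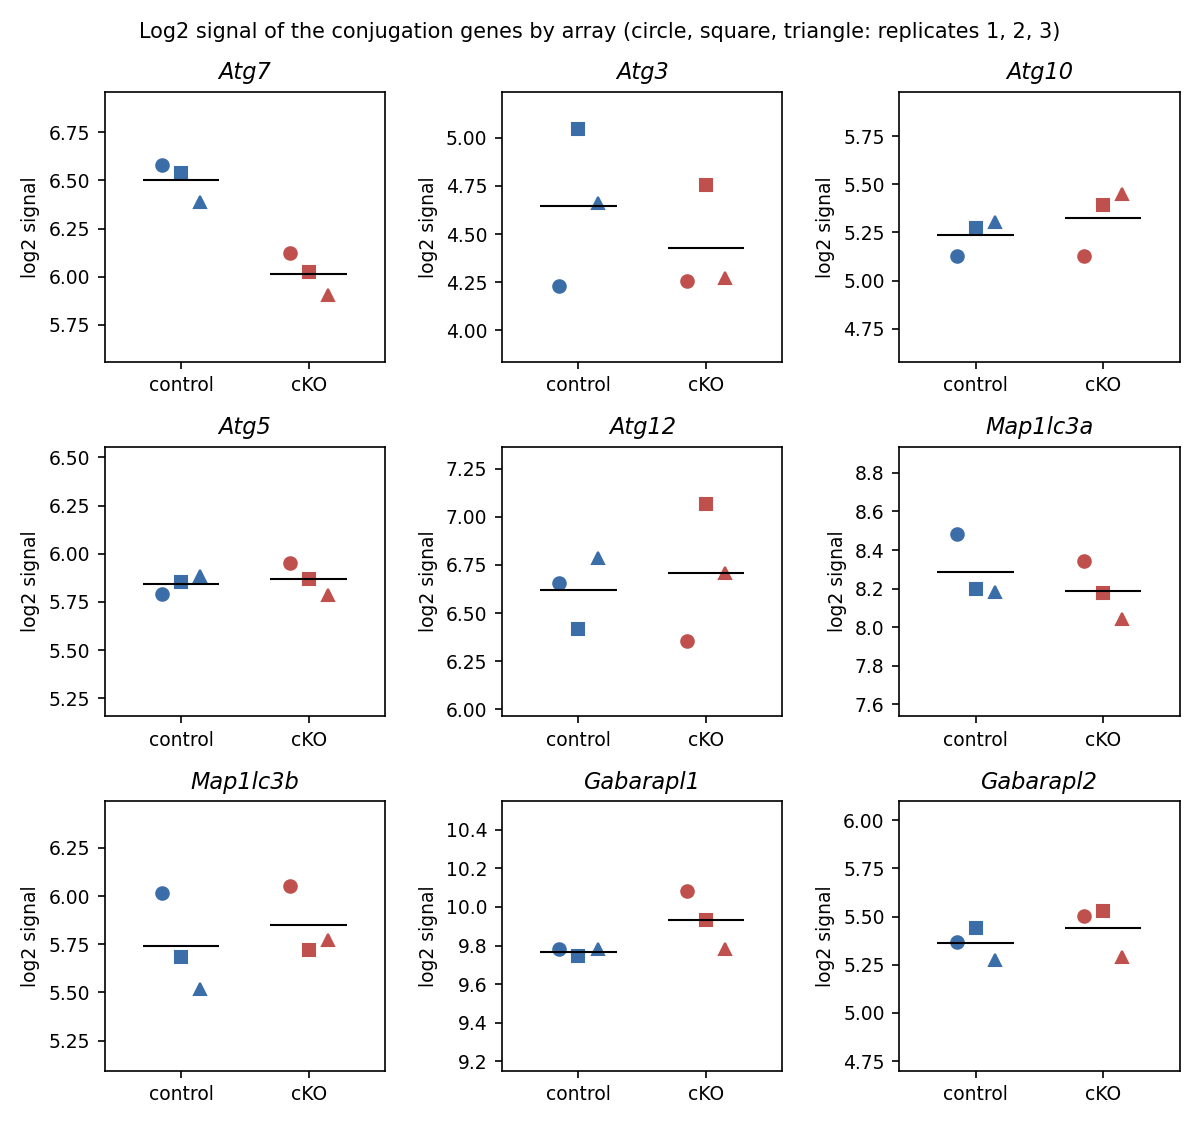
Log2 signal of the 9 measured conjugation genes in each array, with controls in blue and cKO in red, symbols for replicate numbers and a line at each group mean. All panels span 1.4 log2 units. Atg7 is the panel in which the 3 cKO arrays (5.90 to 6.12) lie apart from the 3 control arrays (6.39 to 6.58).

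Across the whole table no gene of 19700 passed an adjusted p of 0.05 by limma (0% in either direction). With the unadjusted p under 0.05 there were 780 genes (3.96%), of which 412 (2.09%) had a higher and 368 (1.87%) a lower mean in the cKO arrays. Of the 9 conjugation genes, 1 was among them, namely Atg7. The groups did not overlap for 8.40% of all genes, 4.15% higher and 4.24% lower, and of the 9 conjugation genes this again held for Atg7. A lower mean in the cKO arrays was found for 3 of the 9 genes (Atg7, Atg3 and Map1lc3a) and for 52.5% of all genes. Leaving out Atg7, the median absolute difference was 0.096 for the other 8 genes and 0.069 for all genes tested.

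Next, the E2-like enzymes that act directly after ATG7 were examined. Atg10, the enzyme for ATG12, had log2 signals of 5.13, 5.27 and 5.30 in the control arrays, and of 5.13, 5.39 and 5.45 in the cKO arrays. Here 2 of 3 cKO arrays were above all controls, and the groups overlapped through cKO replicate 1, the array with the Xist signal, which was the lowest of the 6. Atg10 differed by 0.09 (SE 0.11), with a 95% interval of -0.17 to 0.35 (unadjusted p = 0.443, limma). Without cKO replicate 1 the difference was 0.19 (unadjusted p = 0.0694), and it was 0.035 and 0.053 without control replicate 1 and cKO replicate 2, and 0.025 without cKO replicate 3.

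Atg3, the enzyme for LC3, was read from a dim cluster, brighter than 25.9% of all genes. Signals on the log2 scale were 4.23, 5.04 and 4.66 in the control arrays, and 4.26, 4.76 and 4.27 in the cKO arrays. The range within the controls, 0.81, was wider than the difference between the means, -0.22 (SE 0.23, interval -0.75 to 0.32). It was -0.019 without control replicate 2 and -0.42 without control replicate 1. Without cKO replicates 1, 2 and 3 it was -0.13, -0.38 and -0.14. A brighter cluster, which the annotation shares between Atg3 and D930048N14Rik, had control values of 6.60, 6.74 and 6.93 and cKO values of 6.73, 6.86 and 6.79. Here the difference was 0.04 (SE 0.10), opposite in sign to that of the dim cluster. Neither cluster of Atg3 separated the groups, and the interval of the brighter one, -0.21 to 0.28, was the narrower.

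The genes of the ATG12-ATG5 branch were then compared. Atg5, which encodes the acceptor of ATG12, was at 5.79, 5.85 and 5.88 in the controls. It was at 5.95, 5.87 and 5.79 in the cKO arrays, so the lowest array of the 6 and the highest one were both of the cKO group, if only by a small margin. Its difference of 0.03 (SE 0.077) had a 95% interval of -0.16 to 0.21, the narrowest among the 9 genes, and its sign changed without cKO replicate 1 (-0.013). A fold change of Atg5 below 0.898 or above 1.16 lay outside this interval.

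Atg12, the modifier gene, was measured by 2 clusters of its own. The brighter one had control values of 6.66, 6.42 and 6.79 and cKO values of 6.36, 7.07 and 6.71. The cKO arrays held both the lowest and the highest value, and the difference of 0.09 (SE 0.19, interval -0.36 to 0.54) was within their spread. Without control replicate 2 it was -0.012 and without cKO replicate 2 it was -0.089, while leaving out cKO replicate 1 gave 0.27 and leaving out control replicate 3 gave 0.17. The dimmer cluster had control values of 6.02, 6.01 and 6.13 and cKO values of 6.21, 6.26 and 6.21. There all cKO arrays were above all control arrays, with a difference of 0.18 (SE 0.073, interval 0.0039 to 0.35, unadjusted p = 0.0462 from limma). This cluster was not among the genes chosen for the test, so it has no adjusted p, and 4.15% of all genes had groups apart in this direction. The cluster listed for Atg16l1 and Scarna6, a small RNA that RefSeq places within the bounds of Atg16l1, was at 6.66, 6.58 and 6.63 in the controls. In the cKO arrays it was at 6.57, 6.70 and 6.60, and the means differed by -0.0005 (SE 0.074, interval -0.18 to 0.18).

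**Figure D2:**
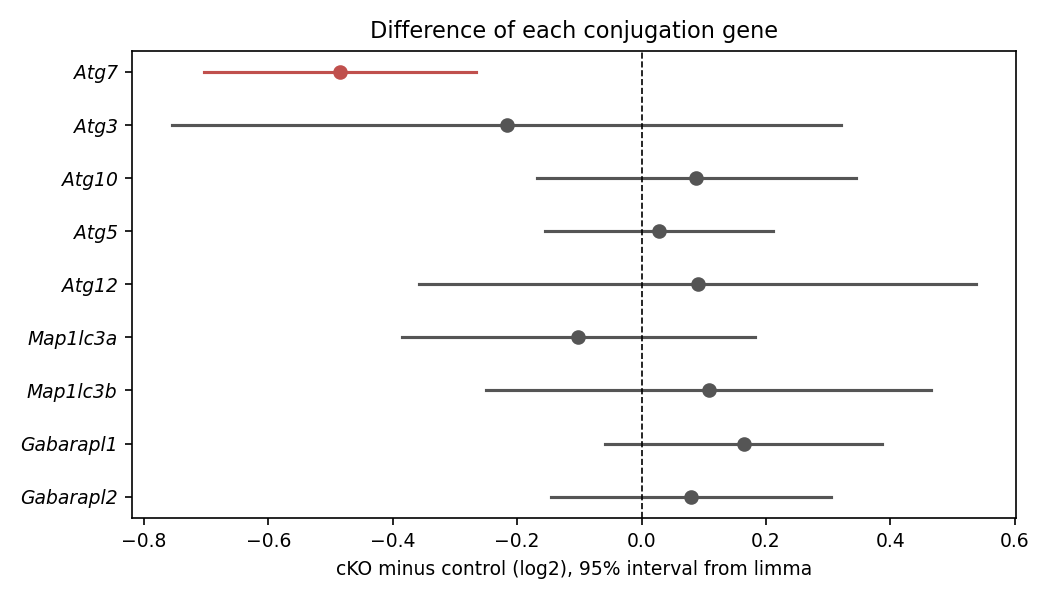
Difference between cKO and control means on the log2 scale for each conjugation gene (points) with its 95% interval from limma (lines), in red where the groups do not overlap. The interval of Atg7 (-0.70 to -0.27) lies below 0 and those of the other 8 genes include 0.

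Map1lc3a, Map1lc3b, Gabarapl1 and Gabarapl2 encode modifiers that end up on the autophagosome membrane. Map1lc3a had log2 signals of 8.48, 8.20 and 8.18 in the control arrays, and of 8.35, 8.18 and 8.04 in the cKO arrays. In both groups the first replicate was the brightest, and 1 cKO array lay above 2 of the controls. Its difference was -0.10 (SE 0.12, interval -0.38 to 0.18), and -0.0045 without control replicate 1 and -0.028 without cKO replicate 3. It was -0.18 without cKO replicate 1, and -0.15 without either of the other controls.

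Map1lc3b encodes LC3B, the form most used to mark autophagosomes. Its control values were 6.02, 5.68 and 5.52 and its cKO values 6.05, 5.72 and 5.77, again with the first replicate the brightest of each group. The difference of 0.11 (SE 0.15) had an interval of -0.25 to 0.47. It was 0.25 without control replicate 1, 0.0063 without cKO replicate 1 and -0.0030 without control replicate 3, so single arrays of both groups set its size. Without cKO replicate 2 it was 0.17. A second, dimmer cluster of Map1lc3b was at 4.13 to 4.32 in the controls and 3.91 to 4.25 in the cKO arrays and differed by -0.10 (SE 0.11).

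Gabarapl1, whose product is abundant in brain, had the lowest p of the 8 genes other than Atg7. Its control arrays were nearly equal, at 9.78, 9.74 and 9.78, while the cKO arrays were at 10.08, 9.93 and 9.78. Thus 2 of 3 cKO arrays were above all controls and the last one was within their range. The difference was 0.16 (SE 0.094, interval -0.058 to 0.39), with an unadjusted p of 0.124 by limma. It was 0.24 (unadjusted p = 0.0341) without cKO replicate 3 and 0.088 without cKO replicate 1, the array with the Xist signal. Gabarapl1 lies on chromosome 6 as well, but was not among the neighbours of Atg7 that are described below.

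Gabarapl2, which encodes GATE-16, had control values of 5.37, 5.44 and 5.27 and cKO values of 5.50, 5.53 and 5.29. In this gene, too, 2 cKO arrays were above all controls, and cKO replicate 3 was near the lowest control. The difference was 0.08 (SE 0.095, interval -0.15 to 0.30). It was 0.035 without control replicate 3, 0.048 without cKO replicate 1, 0.035 without cKO replicate 2 and 0.15 without cKO replicate 3. For these 4 modifier genes, then, no difference beyond the spread between arrays was found, and their intervals allow folds between 0.766 and 1.38.

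The measured conjugation genes other than Atg7 did not move as 1 block. Relative to the control mean, their median was 0.011, -0.0076 and 0.015 in control replicates 1 to 3. It was 0.083, 0.13 and -0.021 in the cKO arrays, where 2 arrays lay above the controls and cKO replicate 3 below them. Over all genes tested the control medians were 0.022, -0.012 and -0.0091 and the cKO medians 0.053, -0.018 and -0.039.

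Other genes of the pathway were then set beside the conjugation genes. The ATG4 proteases cut LC3 both before lipidation and from the membrane afterwards. Of the 7 genes in the list with Atg4a, Atg4b, Atg4c, Atg4d and partners of the conjugates, 1 had a higher mean, 6 a lower mean and 0 an unadjusted p under 0.05, with a median difference of -0.02. The largest size was that of Atg4a, -0.20 (SE 0.13), which became 0.021 when its clusters were averaged. Of 19 genes for the ULK and PI3-kinase complexes, ATG9 and ATG2, 17 were measured, and 7 had a higher and 10 a lower mean (median -0.01). Of these, Wdr45, which encodes the phosphoinositide-binding protein WIPI4, had an unadjusted p under 0.05 (0.0472, limma). It differed by 0.28 (SE 0.11), and its groups overlapped. Without cKO replicate 1 it differed by 0.18, with an unadjusted p of 0.118.

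Autophagy receptors, which tether cargo to LC3 and are degraded with it, were measured for 12 of 13 listed genes. Their median difference was 0.06 against -0.01 for all genes tested. Of the 12, 7 had a higher mean and 5 a lower one, 2 had an unadjusted p under 0.05, against 3.96% of all genes, and none passed over all genes. These were Nbr1 (0.33, SE 0.078) and Sqstm1, the gene of p62 (0.47, SE 0.14), both higher in every cKO array than in any control. Without cKO replicate 1 they differed by 0.29 and 0.32. The study itself picked Sqstm1 on these arrays. Of the other E1 enzymes, which activate ubiquitin-like proteins outside autophagy, 5 of 9 listed were measured. They differed by -0.10 to 0.12, with 3 means higher and 2 lower and no unadjusted p under 0.05 by limma. With cKO replicate 1 left out, 4 were higher and 1 lower. Of 6 genes for TFEB family and FOXO factors, 5 had a lower mean, and Mitf was the 1 gene without overlap (-0.12, SE 0.073), against 8.40% of all genes.

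**Figure D3:**
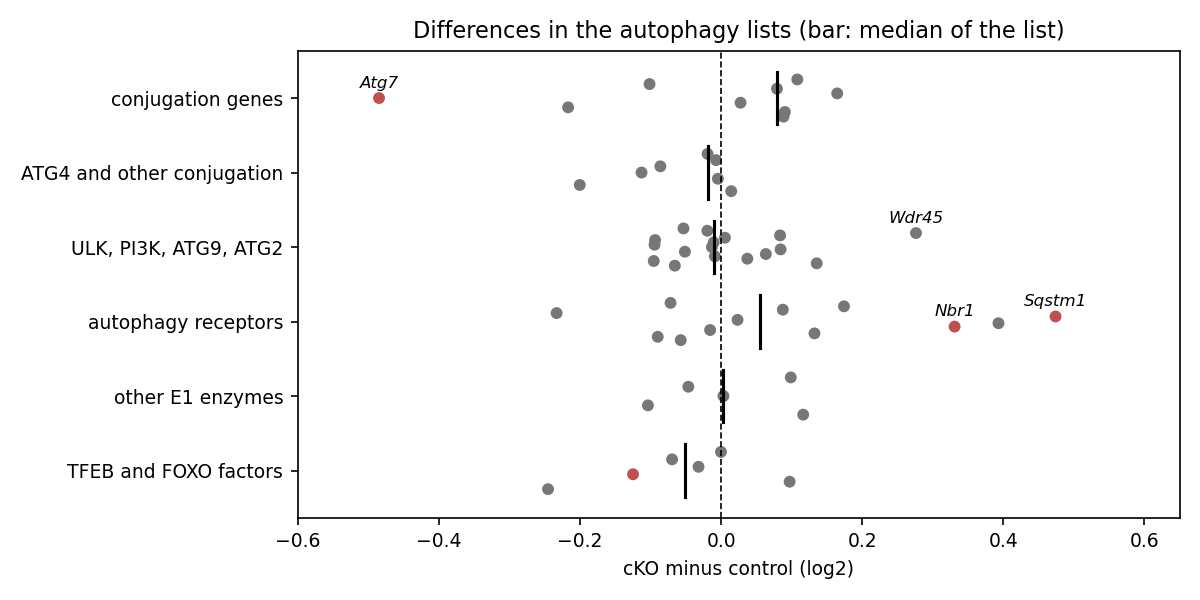
Difference between cKO and control means on the log2 scale for each measured gene of 6 lists, in red where the groups do not overlap, with a bar at each list's median. Genes with an unadjusted p under 0.05 from limma are named: Atg7 at -0.48, Wdr45 at 0.28, Nbr1 at 0.33 and Sqstm1 at 0.47.

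Because the cluster of Atg7 spans more than the RefSeq gene, the genes beside it on chromosome 6 were also examined. Of the 10 nearest measured genes on each side in RefSeq order, 9 had a higher mean and 11 a lower mean, with a median difference of -0.01. The groups did not overlap for 2 of the 20, against 8.40% of all genes. One was Hrh1, the histamine H1 receptor gene, which is the nearest measured gene before Atg7. Its control values were 6.08, 6.04 and 6.24 and its cKO values 5.79, 5.95 and 5.90, all of them lower. It differed by -0.24 (SE 0.087, interval -0.44 to -0.032, unadjusted p = 0.0293 from limma). The other was Timp4, a metalloproteinase inhibitor gene and the fourth measured gene after Atg7, which was at 7.74 to 7.81 in the controls and 7.91 to 8.03 in the cKO arrays (0.19, SE 0.073). Without cKO replicate 1, Hrh1 differed by -0.19 (unadjusted p = 0.0693) and Timp4 by 0.15 (unadjusted p = 0.0676). Vgll4, the first measured gene after Atg7, differed by 0.12 (SE 0.090) with overlap. Whether Hrh1 and Atg7 share probes or sequence in the cluster of 377 kb was not tested.

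**Figure D4:**
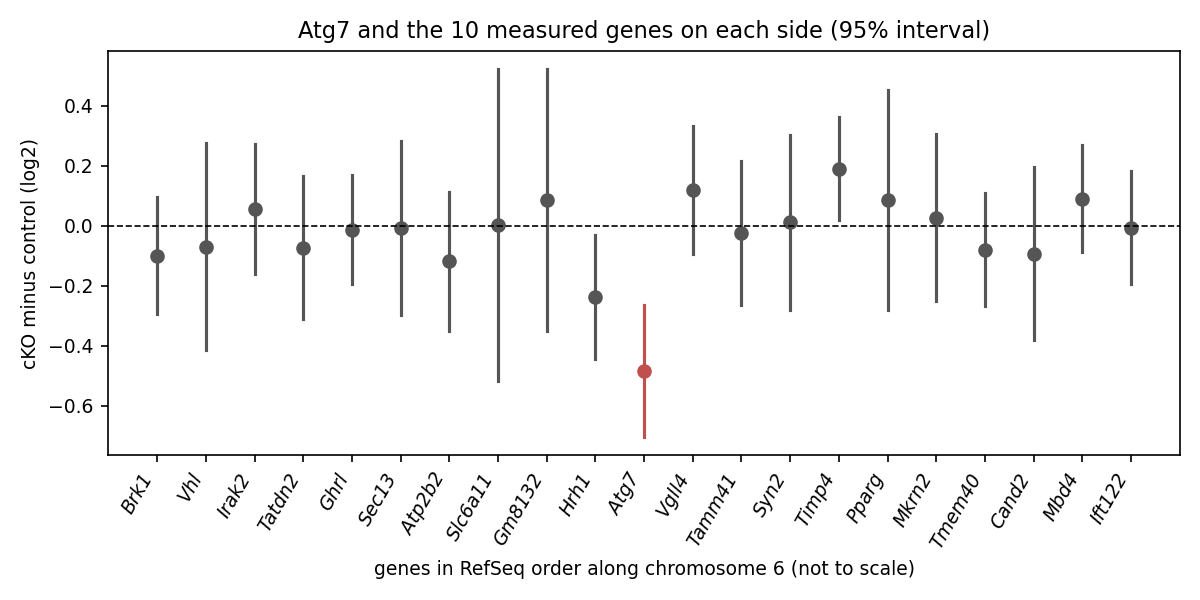
Difference between cKO and control means on the log2 scale, with 95% intervals, for Atg7 (red) and the 10 measured genes on each side in RefSeq order, spaced evenly. Atg7 is at -0.48, Hrh1 just before it at -0.24 and Vgll4 just after it at 0.12.

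Finally, the genes whose pattern was most like that of Atg7 over the 6 arrays were listed by Pearson correlation, among 9304 named genes brighter than the median. They were Xbp1 (r = 0.987), Capn1 (0.984), Ccdc71l (0.983), Drg2 (0.979) and Sox14 (0.979). With 6 arrays and this many candidates such values are a description only. Xbp1, which encodes a transcription factor of the unfolded protein response, had control values of 7.16, 7.19 and 7.10 and cKO values of 6.90, 6.88 and 6.82. It differed by -0.28 (SE 0.071, unadjusted p = 0.00517 and adjusted p = 0.9995, limma). Among the conjugation genes the correlation with Atg7 was highest for Map1lc3a (0.60) and lowest for Atg10 (-0.60), and 2506 of all genes tested, dim and predicted ones included, had a higher correlation with Atg7 than Map1lc3a did.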

How the data were processed

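Total RNA was labelled and hybridised to GeneChip mouse exon 1.0 ST arrays. Per array, the authors deposited 101175 log2 values, 1 for each transcript cluster and normalized before deposit by a method no source names. The methods name GeneSpring. The number of arrays limits the precision. A second deposited table holds the authors' own comparison of 911 clusters (p-values and fold changes, not used). Only its annotation of the Atg7 cluster was read. Every column of log2 values belonged to a sample.

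Clusters listed under 1 symbol (updated by identifier from RefSeq, GRCm38.p6) were kept, plus the Atg7 cluster, and the brightest was taken per gene, dim ones included. The resulting 19700 genes were fitted with limma 3.58.1 (R 4.3.3, lmFit and eBayes), two-sided, cKO minus control, with Benjamini-Hochberg adjustment over all genes. The fit was tested on simulated data. Members and lists were chosen with earlier results of these data known. Named were all members with their other clusters, pathway list genes and neighbours of Atg7 with an unadjusted p under 0.05 (up to 3 per list), and the 5 genes most correlated with Atg7, without predicted genes, small RNAs and olfactory receptors. Vgll4, Atg4a, Neurod6, Slc17a7, Alas2, Ttr, Mog, Mag, Cnp, Rgs9, Drd1, Tmem119, C1qa, Mitf, Tfeb and Tfe3 were named after their values were seen. A gene of the pathway lists is not reported here. Alternatives were other normalizations, filters and spread estimates, averaged clusters, a replicate block and each array left out.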

Additional observations from a re-analysis of the deposited data

How the results depend on the processing

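The difference of Atg7 stayed negative under all 14 alternatives, from -0.54 to -0.43 with 1 array left out and from -0.50 to -0.48 under the others, and its lowest adjusted p was 0.586. The count of genes with an adjusted p under 0.05 from limma was 0 with each array left out in turn and 0 at the looser threshold of 0.1. It was 1 when the dimmest 25% of genes were left out and 1 when a gene's clusters were averaged, in both cases Peg10, an imprinted gene outside the pathway. With an unadjusted p under 0.05 there were 615 to 1510 genes with 1 array left out, the highest without cKO replicate 1, and 1267 in the 4 arrays numbered 2 and 3, a subset chosen after seeing the data. Of the conjugation genes, 1 to 2 had an unadjusted p under 0.05 with 1 array left out, the second being Gabarapl1 without cKO replicate 3. The sign of the difference changed for Atg12 without control replicate 2 (-0.012) and without cKO replicate 2 (-0.089), with 1 array left out giving at most 0.27. It changed for Atg5 without cKO replicate 1 (-0.013, at most 0.069) and in the arrays numbered 2 and 3 (-0.038), and for Map1lc3b without control replicate 3 (-0.0030, at most 0.25). Of the other genes recomputed in this way, the sign changed for Atg4a when clusters were averaged (0.021), and for Tfe3 without control replicate 1 (0.024), cKO replicate 2 (0.0078) and cKO replicate 3 (0.025), with a range of -0.13 to 0.025 over the arrays left out. It changed for Ttr without control replicate 1 (-0.99), control replicate 3 (-0.0030) and cKO replicate 1 (-1.15), with at most 1.13, and in the arrays numbered 2 and 3 (-2.18). These alternatives for other genes were added after seeing the data. The cause was not tested. Same-numbered arrays deviated from their group means with correlations of 0.31, 0.037 and 0.17. The arrays numbered 1 and 3 correlated best with their own number, while those numbered 2 did not. For control replicate 3 this was near a tie, with 0.166 for cKO replicate 3 and 0.164 for cKO replicate 2. The labels name no pairs, so the numbers were not taken as pairs, and whether same-numbered arrays share a batch was not tested. With the replicate block the difference of Atg7 was -0.48 (SE 0.066), 0 genes passed the adjusted threshold and 1157 had an unadjusted p under 0.05.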
